A study of Mus musculus with 103 samples.

Results

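The wells described here are single muscle stem cells of a young mouse, split by whether the transcript of Pax7 was found in them. They were chosen by 2 values of each well. A well was kept if at least 1000 Ensembl genes reached 1 TPM (a share of the library's transcripts, scaled for transcript length to a fixed total), which left 54 of the 64 young wells. The kept wells were then divided by Pax7 at 1 TPM or more, giving 38 wells with Pax7 and 16 wells without Pax7, out of 95 wells and 103 samples in the series. The series holds bulk and single-cell RNA sequencing of muscle stem cells from C57BL/6 mice, all untreated. The young wells came from 1 mouse of 3 months and the old wells from 1 mouse of 24 months. The 3 bulk libraries of young mice, used below for levels, carry an age of 3 months in one label and of 2 months in another. The labels name the cells muscle stem cells, the design text calls them myoblasts, and neither gives the sort gate nor says whether RNA was taken before or after the culture described.

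Pax7 is a paired-box transcription factor that marks muscle stem cells (satellite cells) beneath the basal lamina of the muscle fibre and is needed to maintain them. It stays on in quiescent and cycling stem cells and is switched off as the cells commit through Myod1 and Myog to become muscle fibres. In single-cell libraries a transcript can be present in a cell and still be missed, so a well without Pax7 reads is not the same as a cell without Pax7.

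By the way the wells were chosen, Pax7 differed between the sets, and its values only describe them. In wells with Pax7 the lowest value was 1.05 TPM, the median 37.51 TPM and the highest 228.49 TPM. Of these wells, 12 had 1 to under 10 TPM, 22 had 10 to under 100 TPM and 4 had 100 TPM or more. In wells without Pax7, 14 of 16 were listed at exactly 0, and the highest value was 0.21 TPM. Around the threshold, the nearest wells above it had 1.05 and 1.07 TPM and the nearest below it 0.21 and 0.18 TPM. No well lay between 0.21 and 1.05 TPM, but the 12 wells with Pax7 under 10 TPM change sides at that second threshold, used below.

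**Figure D1:**
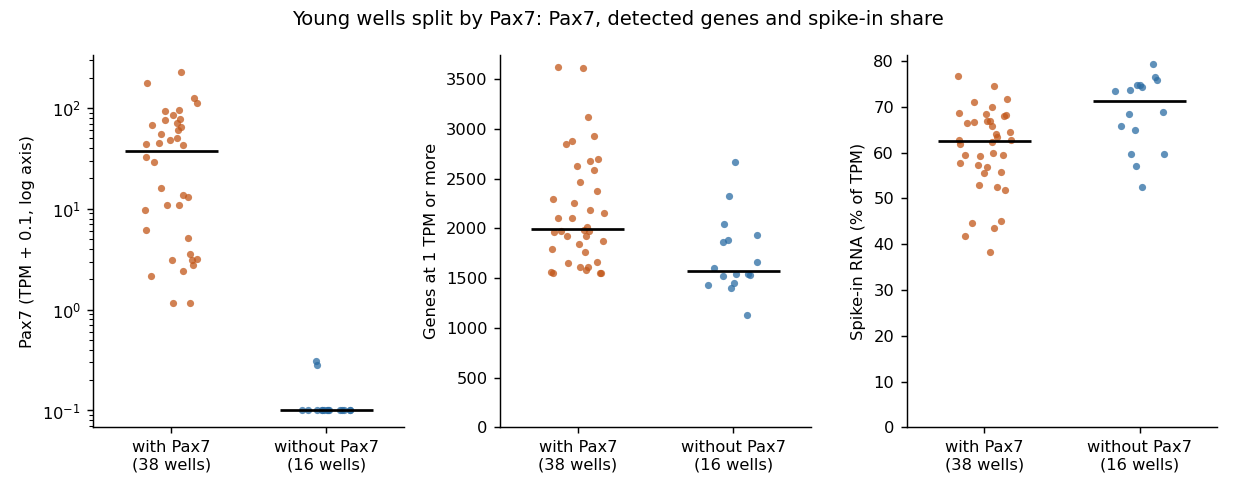
Pax7 (TPM + 0.1, log axis), genes found per well and spike-in RNA (percent of TPM) in young wells with Pax7 (left in each panel) and without Pax7 (right). Each point is a well and each bar a median. Median detected genes were 1999 with Pax7 and 1575 without Pax7, and the 2 sets overlap in genes and in spike-in share.

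The 2 sets also differed in how many genes were found per well. Wells with Pax7 had 1548 to 3621 genes at 1 TPM or more (median 1999), and wells without Pax7 had 1127 to 2664 (median 1575). Spike-in RNA, control transcripts that do not come from the cell, took a median of 62.5% of TPM (38.2 to 76.8%) with Pax7 and 71.2% (52.4 to 79.3%) without Pax7. Across the 54 wells the spike-in share fell with the number of detected genes (Pearson r = -0.96 with log2 genes, a description over wells of 1 mouse). Within the wells that held Pax7, its level hardly tracked detected genes (r = 0.08 over 38 wells). Mitochondrial transcripts took a median of 7.89% of Ensembl TPM (3.33 to 24.2%) with Pax7 and 8.66% (3.36 to 34.01%) without Pax7. Sequencing indices, which the labels give as pairs, were shared by both sets, each first index holding 4 to 6 wells with Pax7 and 1 to 3 wells without Pax7. The second index was less even, and a single value of it held 7 wells with Pax7 and 0 without Pax7.

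Because fewer genes were found in the wells without Pax7, each gene was compared after a linear term for log2 detected genes. All differences below are adjusted in this way, on the log2(TPM + 1) scale, with Pax7 minus without Pax7, unless stated. A value in brackets after a gene name is this difference. The scale understates the change of low genes. Wells of 1 mouse are not replicates of a condition, so no test between the sets was possible, no p-value is given, and intervals for shares of wells (exact Clopper-Pearson, 95%) cover counting error between wells only. A gene is called found in a well at 1 TPM or more.

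One well went against its label. The young well numbered 2, a well without Pax7 with 1455 detected genes, held 0 of 20 muscle stem cell markers. It held 5 of 12 markers of smooth muscle cells and pericytes. These were Tagln at 3514 TPM, Acta2 at 1155 TPM, Mcam at 355 TPM, Myh11 at 122 TPM and Cnn1 at 34.3 TPM, while Rgs5, Cspg4 and Kcnj8 were listed at 0. The other 15 wells without Pax7 held 5 to 15 muscle stem cell markers. Some results below are also given without this well, and those with no second value include it and may change when it is left out. A well with Pax7 held 7 of the smooth muscle markers beside 12 muscle stem cell markers, and another well without Pax7 held 5 beside 7.

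**Figure D2:**
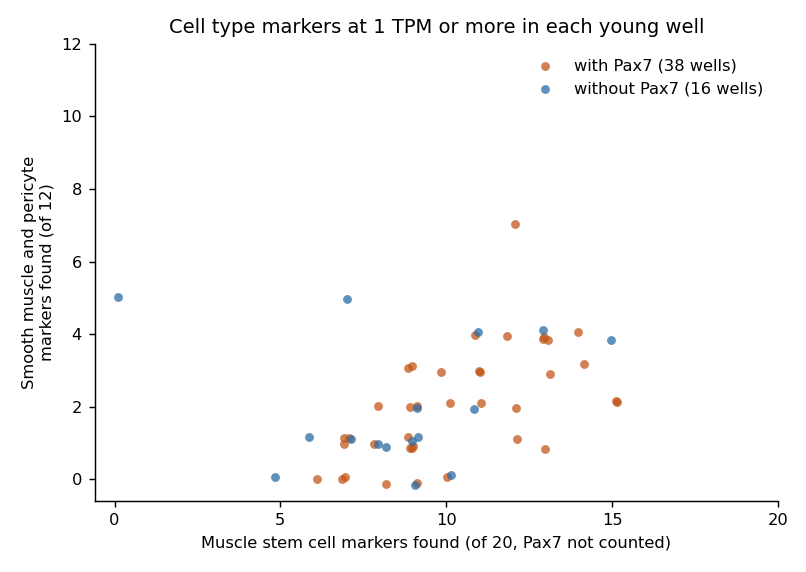
Number of muscle stem cell markers (horizontal axis, of 20, Pax7 not counted) and of smooth muscle and pericyte markers (vertical axis, of 12) found in each young well, with Pax7 in orange and without Pax7 in blue, points moved slightly to separate them. Des and Notch3 belong to both lists. A single well without Pax7 sits at 0 muscle stem cell markers, while the other wells of both sets overlap between 5 and 15.

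Apart from that well, the wells without Pax7 carried the transcripts of muscle stem cells. All 3 of Myf5, Chodl and Sdc4 were found in 30 of 38 wells with Pax7 and in 13 of 16 wells without Pax7. The other 8 wells with Pax7 held 2 of the 3, as did 2 more wells without Pax7. Per well, 6 to 15 of the 20 markers were found with Pax7 (median 10) and 0 to 15 without Pax7 (median 9). Of the 15 markers found in at least 25% of wells, 8 were higher and 7 lower with Pax7, with a median difference of 0.03, against 0.02 over all genes. Without the young well 2 that median was -0.05, and with no term for detected genes it was 0.97.

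Myf5, a myogenic factor that primes stem cells for the muscle fate and a reported target of Pax7, had a lowest, median and highest level of 0, 505.1 and 2664 TPM in wells with Pax7 and of 0, 371 and 1539 TPM in wells without Pax7. It was found in 37 of 38 wells with Pax7 (interval 86.2 to 99.9%) and in 13 of 16 without Pax7 (54.4 to 96.0%). The adjusted difference was 0.50, against a spread between wells of 2.64 (residual SD), and it was 0.13 without the young well 2 and -0.12 with 2000 or more genes per well. Sdc4, a heparan sulphate proteoglycan on the stem cell surface, had 0, 2192 and 6423 TPM with Pax7 and 0, 1002 and 4968 TPM without Pax7. Its difference of 0.77 (residual SD 2.40) became 0.29 without the young well 2. The sets overlapped for both genes, and the highest wells of each held Pax7.

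Chodl, a lectin-like membrane protein enriched in quiescent muscle stem cells, went the other way. It had 0, 175 and 1339 TPM with Pax7 and 0, 308 and 759 TPM without Pax7, and was found in 32 of 38 and 15 of 16 wells. The difference was -1.80 (residual SD 3.16), or -2.18 without the young well 2. Musk, the kinase that organises the neuromuscular junction, was found in 16 of 38 wells with Pax7 and 10 of 16 without Pax7. Its difference was -1.62, or 0.72 with 2000 or more genes per well. Cd34, a sialomucin of many progenitor cells, was found in 27 of 38 wells with Pax7 and 12 of 16 without Pax7. Its difference was -0.55, or 0.35 with no term for detected genes. The calcitonin receptor Calcr, which holds stem cells in quiescence, was found in 18 of 38 and 6 of 16 wells. Its difference was -0.24, or 0.57 with no term for detected genes. Vcam1, an adhesion molecule used to isolate these cells, was found in 18 of 38 wells with Pax7 and 4 of 16 without Pax7 (1.04). Fgfr4, a growth factor receptor and reported Pax7 target, had a difference of 0.03, and Fgfr1 one of 0.33. The cadherin Cdh15 was found in 8 of 38 wells with Pax7 and 2 of 16 without Pax7, and the integrin Itga7 in 7 of 38 and 1 of 16. Pax3, the close relative of Pax7, was found in 0 of 38 and 0 of 16 wells, which allows a share of up to 7.89% and 18.8% of wells at a limit of 3 wells, or 9.25% and 20.6% as the upper bounds of the exact intervals. The same limits apply to the other genes found in 0 of 38 or 0 of 16 wells.

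At least 1 of 22 genes of commitment and differentiation was found in 30 of 38 wells with Pax7 and 10 of 16 without Pax7, with a median of 1 gene per well in both sets. Myod1, the factor that drives stem cells into the muscle programme, was found in 14 of 38 wells with Pax7 (21.8 to 54.01%) and in 2 of 16 without Pax7 (1.55 to 38.3%), a difference of 1.45. The highest Myod1 level of all, 2777 TPM, was in a well without Pax7, against a highest of 583 TPM with Pax7. Myog, which acts at the start of terminal differentiation, was found in 0 of 38 and 0 of 16 wells. Of the 22 genes, 8 were found in no well. Mki67, made in dividing cells, was found in 2 of 38 wells with Pax7 and 0 of 16 without Pax7. Ccnd1, the cyclin of entry into the cell cycle, was found in 10 of 38 wells with Pax7 and 0 of 16 without Pax7 but in too few wells to be compared across genes. Cdkn1a, an inhibitor of the cell cycle, was found in 23 of 38 and 8 of 16 wells. Its difference was -0.42, or 0.27 with no term for detected genes. Cd47, the signal that tells phagocytes to spare a cell, was found in 22 of 38 wells with Pax7 and 6 of 16 without Pax7, with a median of 2.66 TPM and 0.19 TPM and a difference of 1.04.

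Of 14 endothelial markers, 10 were found in no well, Cdh5 among them, and Pecam1 was found in 2 wells with Pax7 and 0 without Pax7. Tek was found in 11 of 38 wells with Pax7 and 1 of 16 without Pax7, counts also not adjusted for detected genes. Of 15 leukocyte markers, 13 were found in no well, Ptprc among them, and of 10 lymphocyte markers 7. Schwann cell, tendon and red blood cell lists had 8 of 12, 8 of 9 and 6 of 7 members found in no well. In the fibro-adipogenic list of 15, 6 members were found in no well, Pdgfra and Ly6a among them, yet every well held at least 1 member (1 to 7 with Pax7, 1 to 4 without Pax7). Of its 5 measured members 4 were higher with Pax7. Gsn was found in 31 of 38 wells with Pax7 and 9 of 16 without Pax7 (0.36), Col3a1 in 25 of 38 and 4 of 16 (0.90), and Dcn in 15 of 38 and 4 of 16 (0.75). The summed level of the list was 11.6 to 1576 TPM with Pax7 (median 606) and 30.4 to 1406 TPM without Pax7 (median 692). Serping1, a complement inhibitor, was its most widespread member, in 37 of 38 and 14 of 16 wells. The summed smooth muscle list ran to 2412 TPM with Pax7 (median 79.1) and to 5181 TPM without Pax7 (median 97.2).

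Across the 2390 genes found in at least 25% of the 54 wells, 24 were at least 2 log2 units higher with Pax7, 1.00% of them, and 34 were at least 2 units lower, 1.42%. The median gene differed by 0.02, and 1213 of the 2390 were higher with Pax7. Without the term for detected genes the median was 0.54, 1888 genes were higher with Pax7, 104 (4.35%) were at least 2 units higher and 5 (0.209%) at least 2 units lower. With 3 strata of detected genes in place of the linear term the median was 0.17, with 38 genes at least 2 units higher and 17 lower. Which adjustment suits these wells better was not tested. Of the 24 higher genes, 16 were protein-coding and 5 were processed pseudogenes. Of the 34 lower genes, 29 were protein-coding. Leaving out the young well 2 gave 22 higher and 28 lower genes, of which 21 and 25 were shared with the full set of wells.

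**Figure D3:**
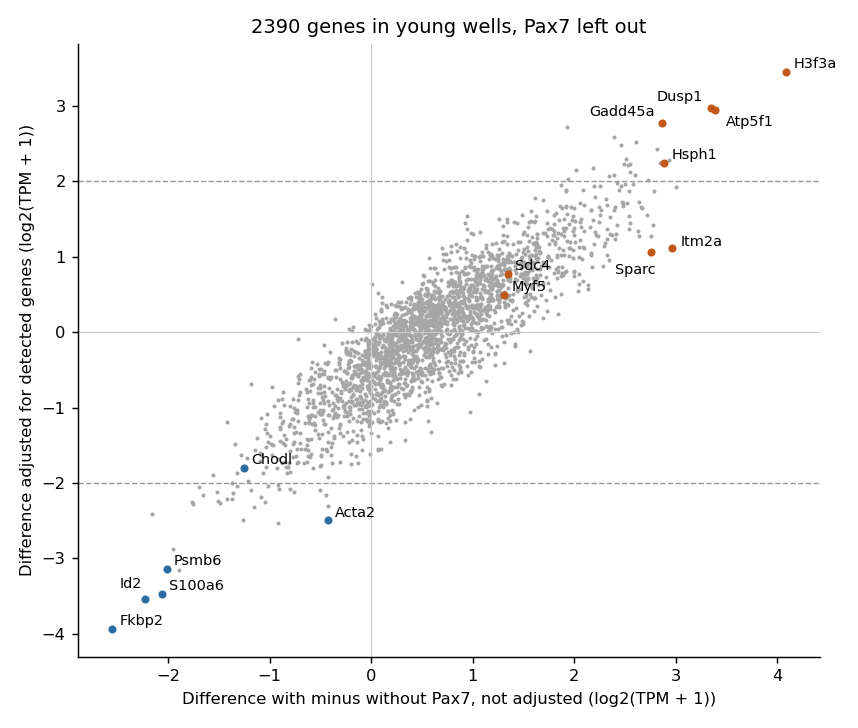
Difference in mean log2(TPM + 1), young wells with Pax7 minus without Pax7, for 2390 genes, as measured (horizontal axis) and after the term for detected genes (vertical axis). Dashed lines mark 2 log2 units. The cloud is shifted to the right by 0.54 at its median but sits at 0.02 on the vertical axis, and Itm2a and Sparc lie near 3 units before adjustment and near 1 after it.

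Among the genes higher with Pax7 was a gene of the early stress response. Dusp1, a phosphatase that switches off MAP kinases and is induced within minutes of stimulation, had 0, 130 and 1474 TPM (lowest, median, highest) in wells with Pax7 and 0, 0 and 375 TPM in wells without Pax7. It was found in 34 of 38 wells with Pax7 (75.2 to 97.1%) and in 6 of 16 without Pax7 (15.2 to 64.6%). The difference was 2.97 (residual SD 3.08). Among the wells with 1548 to 2664 detected genes, the range that both sets share, Dusp1 was found in 28 of 30 wells with Pax7 and 2 of 8 without Pax7. With 2000 or more genes per well, a set of 19 wells with Pax7 and 3 without Pax7, the difference was 1.63. When the wells were split at 10 TPM of Pax7 instead of 1 TPM, 26 wells above and 28 below, it was 0.70.

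Gadd45a, a stress-induced gene that slows the cell cycle and promotes DNA demethylation, had 0, 49.2 and 1088 TPM with Pax7 and 0, 4.98 and 350 TPM without Pax7. It was found in 34 of 38 and 9 of 16 wells, and differed by 2.77 (residual SD 2.85). Gadd45b (-1.63) and Gadd45g (-0.65) were lower with Pax7. Of 8 measured cell cycle inhibitors and p53 targets, the list that holds these genes, 4 were higher and 4 lower (median -0.16). Hsph1, a large heat shock protein that helps refold proteins, had 0, 63.5 and 1276 TPM with Pax7 and 0, 0.155 and 511 TPM without Pax7, and differed by 2.25. Ifrd1, a transcriptional co-regulator induced in regenerating muscle, was found in 31 of 38 wells with Pax7 and 6 of 16 without Pax7 (2.24). Gadd45a, Hsph1 and Ifrd1 each had wells at 0 and wells above 100 TPM in both sets.

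The highest difference of all was that of H3f3a, which encodes the replication-independent histone H3.3. It had 0, 128 and 726 TPM with Pax7 and 0, 0 and 464 TPM without Pax7, was found in 34 of 38 and 6 of 16 wells, and differed by 3.45 (residual SD 2.80). The 464 TPM was in the young well 2, and without that well the difference was 3.85. H3f3c (2.29) and H3f3a-ps2 (2.30), both annotated as processed pseudogenes, stood beside it. These share long stretches of sequence, so reads may have been split among them and the 3 are not separate observations.

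Metabolic genes on this side were single members of larger complexes. Atp5f1, a subunit of the ATP synthase stalk, had 0, 26.8 and 785 TPM with Pax7 and 0, 0 and 239 TPM without Pax7. It was found in 23 of 38 wells with Pax7 (43.4 to 76.0%) and 2 of 16 without Pax7 (1.55 to 38.3%), a difference of 2.95. Ndufa2, a subunit of respiratory complex I, was found in 22 of 38 and 5 of 16 wells (2.72). In the shared range of detected genes neither gene was found in any of the 8 wells without Pax7, a limit of 3 wells that allows a share of up to 37.5%, while Atp5f1 was in 16 and Ndufa2 in 19 of 30 wells with Pax7. Mat2a, which makes the methyl donor S-adenosylmethionine, was found in 29 of 38 wells with Pax7 and 8 of 16 without Pax7 (2.49). Sepp1, the plasma selenium carrier, was found in 25 of 38 and 4 of 16 (2.23). Hdlbp, an RNA-binding protein, differed by 2.53 over all wells but by -0.60 with 2000 or more genes per well. Split at 10 TPM of Pax7, the differences of Gadd45a (2.47), Ndufa2 (2.32) and Ifrd1 (2.86) stayed beyond 2 units, while those of H3f3a (1.79), Mat2a (1.53), Atp5f1 (1.33), Hsph1 (1.24) and Sepp1 (0.79) did not. The remaining genes of the 15 most positive were Gm26377, annotated as a microRNA, and the processed pseudogenes Gm12231 and Gm13092. Their counts may come from near-identical copies.

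**Figure D4:**
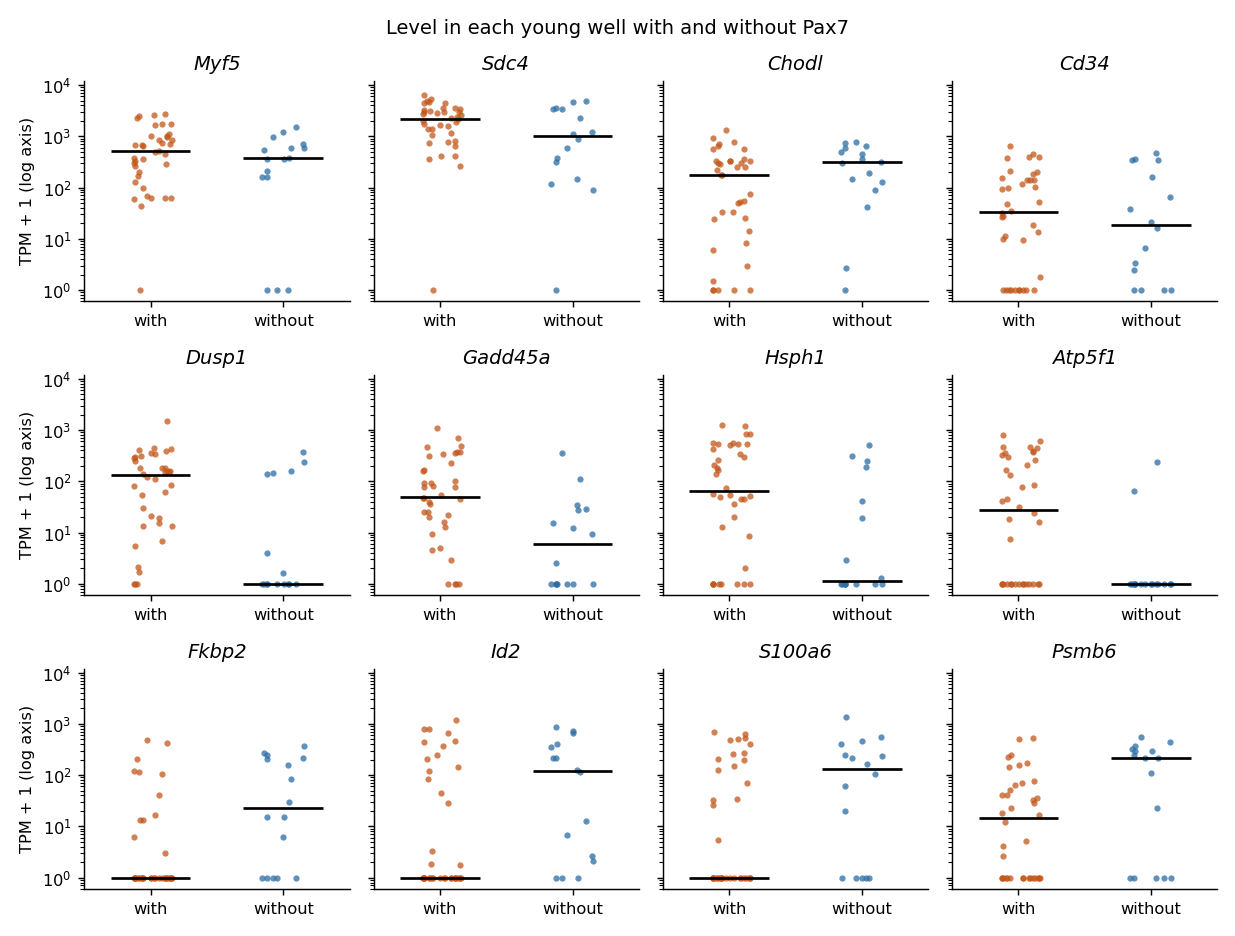
Level of 12 genes (TPM + 1, log axis) in each young well, with Pax7 on the left and without Pax7 on the right of each panel, with medians as bars. Top row, muscle stem cell markers, which overlap; middle row, genes higher with Pax7, where the median without Pax7 is 0 for Dusp1 and Atp5f1; bottom row, genes lower with Pax7, where the median with Pax7 is 0 for Fkbp2, Id2 and S100a6.

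On the lower side, the gene with the largest difference was Fkbp2, a prolyl isomerase of the endoplasmic reticulum. It had 0, 0 and 487 TPM (lowest, median, highest) in wells with Pax7 and 0, 21.7 and 367 TPM in wells without Pax7. It was found in 12 of 38 wells with Pax7 (17.5 to 48.7%) and in 11 of 16 without Pax7 (41.3 to 89.0%), a difference of -3.94 (residual SD 2.78). In the shared range of detected genes it was found in 8 of 30 wells with Pax7 and 7 of 8 without Pax7.

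Id2, an inhibitor of basic helix-loop-helix factors such as Myod1 and a reported Pax7 target, had 0, 0 and 1212 TPM with Pax7 and 0, 120 and 855 TPM without Pax7. It was found in 15 of 38 wells with Pax7 (24.0 to 56.6%) and 13 of 16 without Pax7 (54.4 to 96.0%), a difference of -3.53 (residual SD 3.73). In the shared range of detected genes the counts were 10 of 30 and 7 of 8 wells. Without the young well 2 the difference was -3.25. S100a6, a calcium-binding protein, had 0, 0 and 690 TPM with Pax7 and 0, 133 and 1350 TPM without Pax7, and differed by -3.47. Fkbp2, Id2 and S100a6 stayed beyond -2 in each of the 15 alternative settings run, the extremes of leaving out 1 well included.

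Psmb6, a catalytic subunit of the proteasome core, had 0, 13.3 and 519 TPM with Pax7 and 0, 217 and 565 TPM without Pax7, was found in 23 of 38 and 11 of 16 wells, and differed by -3.14. Psmc6, an ATPase of the proteasome cap, was found in 17 of 38 wells with Pax7 and 10 of 16 without Pax7 (-2.27). Without the young well 2 its difference was -1.996, no longer past 2 units. Of the 16 measured members of the proteasome list, which holds Psmb6 but not Psmc6, 6 were higher and 10 lower with Pax7, with a median of -0.08, and Psmc3 differed by 1.03. Il6st, the shared receptor subunit of interleukin 6 family cytokines, was found in 12 of 38 and 10 of 16 wells (-2.42). Arpc5, a subunit of the actin-nucleating Arp2/3 complex, differed by -2.54, the interferon-induced Ifitm3 by -2.09 and the splicing factor Hnrnpa1 by -2.32. Hnrnpa1 was found in almost all wells (34 of 38 and 14 of 16), with a median of 25.1 TPM with Pax7 and 76.0 TPM without Pax7.

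Acta2 and Tagln, contractile and actin-binding proteins of smooth muscle that are also made by activated mesenchymal cells, were among the 34 lower genes. Acta2 was found in 14 of 38 wells with Pax7 and 7 of 16 without Pax7, with a difference of -2.50, and Tagln in 16 of 38 and 6 of 16, with -2.16. Without the young well 2 the differences were -2.04 and -1.62, so Tagln no longer passed 2 units. All 4 measured members of the smooth muscle list were lower with Pax7, with Des at -0.40 and Notch3 at -0.21. With no term for detected genes 2 of the 4 were higher, Des at 0.99 and Notch3 at 0.56, and the list's median was 0.07. Acta2 was then at -0.43 and Tagln at -0.45, so neither passed 2 units without the term. Both genes had a median of 0 TPM in each set.

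Gene lists were described by their members found in at least 25% of wells, beside the median of 0.02 and the 50.8% higher over all 2390 genes. In the immediate early and dissociation list, genes switched on within minutes of stimulation or tissue digestion, 23 of 28 measured members were higher with Pax7, with a median of 0.41. Dusp1 was the single member beyond 2 units. Nr4a1, an orphan nuclear receptor, was found in 24 of 38 wells with Pax7 and 4 of 16 without Pax7 (1.94), and Ier2 in 24 of 38 and 6 of 16 (1.64). The AP-1 subunit Fos had 0, 921 and 7747 TPM with Pax7 and 0, 348 and 5744 TPM without Pax7, a difference of 1.00 against a residual SD of 4.37. Jun differed by -0.54, Egr1 by -0.57 and Myc by -1.46. Directions did not hold throughout for genes on either side. With no term for detected genes Jun was at 0.61 and Egr1 at 0.13. With 2000 or more genes per well Myc was at 0.09, Fos at -1.85 and Ier2 at -0.59, while Nr4a1 kept its sign in each of the 15 settings. The medians of Jun were 79.2 TPM with Pax7 and 32.3 TPM without Pax7, and those of Egr1 1334 and 854 TPM. Egr1 was found in 37 of 38 and 16 of 16 wells. With 2000 or more genes per well the list's median was -0.31.

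The promoter of Dusp1 is shown because that gene had the largest difference of the list and is a known target of the cyclic AMP factor CREB. In the RefSeq window from 250 bases before to 50 after the transcription start (GRCm38.p6, chr17:26508423-26508722, minus strand), the palindromic cyclic AMP response element TGACGTCA, the same on both strands, was found and is in capitals.
Dusp1 promoter: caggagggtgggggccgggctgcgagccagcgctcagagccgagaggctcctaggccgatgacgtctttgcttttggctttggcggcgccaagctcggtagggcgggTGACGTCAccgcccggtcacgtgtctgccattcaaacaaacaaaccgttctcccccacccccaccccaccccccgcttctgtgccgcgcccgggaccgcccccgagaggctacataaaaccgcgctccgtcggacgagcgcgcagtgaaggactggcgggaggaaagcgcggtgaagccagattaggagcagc
That motif was in 3 of 26 immediate early promoters matched by symbol (11.5%; Btg2, Dusp1 and Maff) and in 549 of 27025 promoters of the table (2.03%). Btg2 differed by 0.61 between the sets and Maff by -0.77, so the 3 genes that hold the motif did not share a direction.

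Heat shock proteins and chaperones had 13 of 17 measured members higher with Pax7 and a median of 0.64. After Hsph1, the mitochondrial co-chaperonin Hspe1 (1.38), the stress-induced Hsp90aa1 (1.24) and the Hsp40 protein Dnajb1 (1.07) were the most positive. The constitutive Hsp90ab1 (0.04) and Hspa8 (0.19) were found in almost all wells and scarcely differed. The small chaperone Cryab was lower (-1.12), but its sign turned with 2000 or more genes per well and with the split at 10 TPM of Pax7. Hsp90aa1 was at -0.92 with 2000 or more genes per well. Hspa1a and Hspa1b are near-identical copies, and their values of 0.89 and 0.77 may share reads.

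Reported targets of Pax7 or its relative Pax3 had 7 measured members, of which 6 were higher with Pax7, with a median of 0.65. Id3, a sister of Id2, had 0, 766 and 8864 TPM with Pax7 and 0, 449 and 2627 TPM without Pax7 (1.34). The 2627 TPM was in the young well 2, and without that well the difference was 1.60. Itm2a, a membrane protein of myogenic cells, had 0, 108 and 1464 TPM with Pax7 and 0, 0 and 140 TPM without Pax7 (1.11, or 2.96 before adjustment). All wells without Pax7 lay at or below 140 TPM of Itm2a, while the median well with Pax7 reached 108 TPM. Id2 was the exception at -3.53, so the 2 Id genes went in opposite directions.

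**Figure D5:**
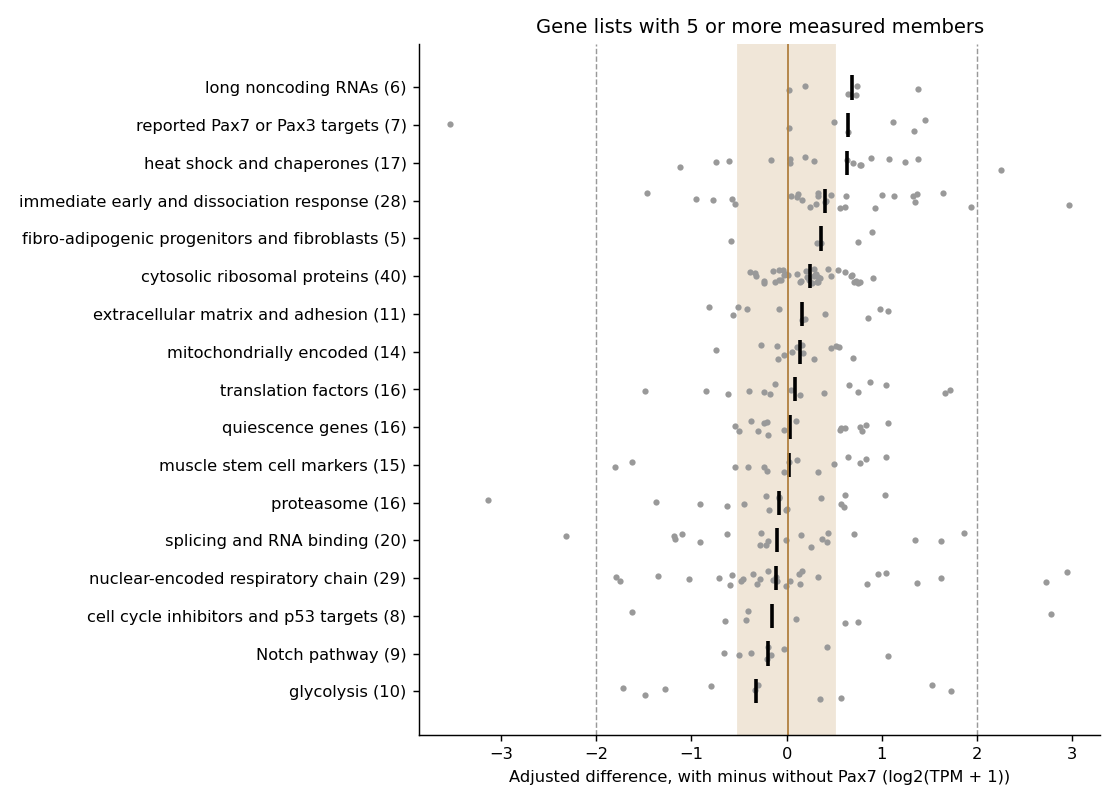
Adjusted difference, with minus without Pax7 in log2(TPM + 1), of each measured member (points) of the gene lists with 5 or more of them, with the list's median as a black bar and the number measured in brackets. The shaded band is the middle 50% of all 2390 genes and the brown line their median of 0.02. Medians run from -0.32 for glycolysis to 0.69 for long noncoding RNAs, and dashed lines mark 2 log2 units.

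All 6 measured long noncoding RNAs were higher with Pax7, with a median of 0.69. Neat1, the scaffold of nuclear paraspeckles, was found in 34 of 38 and 10 of 16 wells (1.38), and the imprinted Meg3 in 24 of 38 and 6 of 16 (0.65). The abundant Malat1 was found in every well and differed by 0.20. Extracellular matrix genes had 6 of 11 measured members higher (median 0.16). Sparc, a secreted matrix protein, had 0, 206 and 1890 TPM with Pax7 and 0, 10.3 and 284 TPM without Pax7, and differed by 1.07 after and 2.75 before adjustment.

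Quiescence genes were balanced, with 8 of 16 higher and a median of 0.03. Of 9 measured Notch pathway genes, which hold muscle stem cells in quiescence, 2 were higher with Pax7 and the median was -0.20. The median was 0.56, with 7 of 9 higher, when no term for detected genes was used, and 0.38 with 2000 or more genes per well. The pathway's transcription factor Rbpj differed by 1.06, the target Hes1 by -0.50, Heyl by -0.03 and the receptor Notch2, found in 34 of 38 and 13 of 16 wells, by -0.20.

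Energy and protein synthesis lists held single genes on both sides. Of 29 respiratory chain genes encoded in the nucleus, 12 were higher and 17 lower (median -0.11). Ndufa13 (-1.79) and Cox6a1 (-1.75) were opposite to Atp5f1 and Ndufa2. However, Ndufa13 was at 0.30 with 2000 or more genes per well, and Cox6a1 at -0.20 with no term for detected genes. Of the 14 measured mitochondrially encoded genes, 9 were higher and 5 lower. Their median was 0.14, or -0.30 with 2000 or more genes per well. Found in every well, mt-Cytb differed by 0.69, while mt-Nd3 differed by -0.74. Glycolysis had 4 of 10 higher and a median of -0.32, with its last enzymes Pkm (1.72) and Ldha (1.53, but -0.99 when split at 10 TPM of Pax7) on one side and Eno1 (-1.72) and Gpi1 (-1.49) on the other. The 40 cytosolic ribosomal protein genes had 27 higher and a median of 0.25, in a narrow range from -0.38 for Rps7 to 0.91 for Rps4x. Those genes have many processed pseudogenes that may take or give reads. Their median turned negative with 2000 or more genes per well and in the shared range of detected genes (-0.12 at its lowest). Without the young well 2 the difference of Rps4x was 0.52. Translation factors (9 of 16 higher, 0.09) and splicing genes (9 of 20 higher, -0.10) were balanced.

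Within the 38 wells with Pax7, the genes whose level was most like that of Pax7 were sought by the correlation of log2(TPM + 1) after the term for detected genes, among 1117 genes found in at least 50% of these wells. The most alike were Gm6286 (r = 0.53), Tomm7 (0.51), Itm2a (0.49), Gm15725 (0.47), Rpl7a (0.45) and Eif5 (0.45). The least alike were Sat1 (-0.41), Bclaf1 (-0.40) and Tbca (-0.40). These are the ends of a distribution whose 5th and 95th percentiles were -0.25 and 0.27, from wells of 1 mouse that share their animal and preparation. Itm2a was the one gene of the Pax7 target list among them.

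In the bulk libraries of young mice, Pax7 averaged 291 TPM over 3 libraries, and 204 genes had a bulk mean within 1.5-fold of it (194 to 436 TPM). In the 54 wells these genes were found in a median of 70.4% of wells (quartiles 45.8 and 92.6%). The share with Pax7, 70.4%, is the value that split the wells and supports nothing here, and 98 of the 204 genes were found less often. Bulk and well libraries were scaled separately, and in bulk fewer cells with a transcript and less of it per cell cannot be told apart.

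Of the 31 old wells, 7 were kept, 5 with Pax7 and 2 without Pax7. Pax7 was 1.47, 2.07, 10.57, 42.74 and 50.32 TPM in the 5 and 0 and 0.72 TPM in the 2. All 7 held Myf5, at 660 to 1541 TPM in the 5 and at 246 and 896 TPM in the 2. Dusp1 was 0, 0, 194, 275 and 610 TPM in old wells with Pax7 and 1.58 and 32.7 TPM in old wells without Pax7. Id2 was 0, 44.03, 282, 326 and 340 TPM with Pax7 and 0 and 675 TPM without Pax7, so the groups overlapped for both genes. Of the 58 genes beyond 2 units in young wells, 54 could be compared, and 22 of these (40.7%) had the same sign of adjusted difference in old wells, against 1087 of 2246 (48.4%) over all genes compared. With no term for detected genes, 78 of 105 such genes (74.3%) had the same sign, against 1486 of 2246 (66.2%). The order of these shares thus turned round with the term, in a set that held 2 wells without Pax7.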

How the data were processed

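The deposited values are TPM per gene, as the labels' file descriptions name them. Per the submitters' processing notes, reads were aligned with STAR to mm10. The quantifier, the annotation and the depth per well are not given in the sources used, so no read count stands behind a value. The library protocol in the labels describes bulk RNA, and none is given for the wells. Of 45797 entries, 43282 Ensembl IDs were used (42781 in GENCODE vM21), 92 were spike-ins and 2423 were left out. Pax7, the wells and the lists were chosen with earlier results of these data known. Differences are the coefficient of the Pax7 set in a least-squares fit of log2(TPM + 1) with log2 detected genes. They are given for genes at 1 TPM or more in 25% of wells. The fit was checked on simulated data. That check cannot show whether a linear term suits these wells, in which many genes were often not found. Named genes were a fixed set of stem cell genes, the 15 highest and 15 lowest differences whose share of wells differed the same way, up to 4 members per list with the largest difference and the genes most like Pax7. Some other list members were named after their values were seen. No doublet caller was run. Fits ran in Python 3.11.15 with numpy 2.4.6 and pandas 2.3.3, intervals in scipy 1.17.1, and plots in matplotlib 3.10.9.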

Additional observations from a re-analysis of the deposited data

Results flagged for a closer look

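In the 5 old wells with Pax7, 3 genes each had a well far above the rest, a different well for each gene. H3f3a was at 98.15 TPM, Gadd45a at 201.07 TPM and S100a6 at 424.35 TPM in the highest well, with a gap to the next well beyond Dixon's 95% limit. That limit marks about 1 in 20 groups by chance only where values are normally distributed. Each of the 3 genes was not found in at least 1 of these wells, so that rate need not hold here. The marks therefore do not show that a well was unusual. In all, 9 measures were looked at.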

How the results depend on the processing

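Counts of genes beyond 2 log2 units, 24 higher and 34 lower with Pax7, depended on the processing. They were 104 and 5 with no term for detected genes, 38 and 17 with 3 strata of detected genes, 125 and 127 with a pseudocount of 0.1 TPM, 0 and 4 with a pseudocount of 10 TPM, and 72 and 77 with TPM rescaled over nuclear genes without spike-ins. They were 341 and 350 with 2000 or more genes per well (19 and 3 wells), 53 and 77 in the common range of detected genes, 16 and 15 with the split at 10 TPM of Pax7, 41 and 36 with the second index as terms, and 19 and 13 for genes in 50% of wells. Leaving out 1 well at a time gave 21 to 33 higher and 25 to 39 lower. Without the term, list medians were 0.97 for muscle stem cell markers, 0.66 for the respiratory chain, 0.99 for translation factors, 0.80 for splicing and 0.75 for the proteasome, and 74.3% of genes past 2 units had the same sign in old wells. The median over all genes was then 0.54, and 0.17 with 3 strata. Hdlbp was -0.60 with 2000 or more genes per well. The cause of these shifts was not tested. Of 126 named genes, 73 kept their sign in each of 15 settings, and of 17 lists 4 did in each of 16 (fibro-adipogenic, reported Pax7 or Pax3 targets, heat shock and long noncoding RNAs). The heat shock median was 0.0016 at its lowest among those settings. Leaving out the young well 2, leaving out the 2 wells with over 3500 genes, and dropping gene models and pseudogenes were chosen after seeing the data. No old well without Pax7 had 2000 genes, so that setting gave no value for old wells. No paired analysis was possible because the wells carry no replicate numbers that pair them. Depth per well is unknown, and 16 wells of 1 mouse limit what can be told of wells without Pax7.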
